A study of Mus musculus with 2 samples.

Results

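The genes described are the arrestins, the α-arrestins and the kinases that prepare receptors for arrestin binding. They comprise the 2 β-arrestin genes (Arrb1 and Arrb2), 4 α-arrestin genes (Arrdc1 to Arrdc4) and 4 G-protein coupled receptor kinase (GRK) genes, which the tables list as Adrbk1 (the gene of GRK2), Adrbk2 (the gene of GRK3), Grk5 and Grk6. They were chosen by gene symbol and not by a measured value, though with earlier results of these data known. They are 10 of the 16302 genes listed in at least 1 of the tables of the series. All 10 were listed in both tables and all 10 reached the minimum of 1 FPKM (fragments per kilobase of transcript, scaled to the number of mapped fragments, a level corrected for transcript length and sequencing depth) in at least 1 library, which left 12646 genes for analysis.

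Gene expression was measured by RNA-sequencing in astrocytes of the dentate gyrus (DG), a part of the hippocampus in which neurons are born in adulthood, to find how loss of β-arrestin 1 (β-arr1) alters the transcript profile of the cells that surround neural precursors. There was 1 library from wild type (WT) mice and 1 from β-arr1 knockout (KO) mice, both labelled as strain C57BL/6 (a C57BL/6J background in the study's methods), and cDNA was pooled within a genotype. The astrocytes were untreated primary cultures from adult DG, grown in a serum-containing medium and shaken to detach progenitors and neurons, and the knockout was carried by every cell of the animal and not by astrocytes alone. The age of the mice used for sequencing was not given in the sources used here, and with 1 library per genotype no difference has a replicate check, so no p-value is given.

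When an agonist activates a G-protein coupled receptor, a GRK phosphorylates the active receptor and a β-arrestin then binds it. The bound β-arrestin blocks further coupling to the G protein, links the receptor to clathrin and AP-2 for internalisation, and serves as a scaffold for signalling kinases. The α-arrestins share the arrestin fold but mainly act as adaptors that bring Nedd4-family ubiquitin ligases to membrane proteins, and β-arrestin 1 also enters the nucleus, where it binds regulators of transcription.

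The labels were checked against marker genes. All 10 astrocyte markers were listed in both libraries, with a summed level of 396.3 FPKM in WT cultures and 419.9 FPKM in KO cultures. Gfap, the astrocyte intermediate filament gene, was at 188.5 and 191.8 FPKM. Of the 10, 8 were higher in KO, and 4 had a ratio (KO vs. WT) above 3/2. Of all genes with at least 1 FPKM in both libraries, as all 10 had, 6.45% were above 3/2. Genes of other cell types were present too. All 10 microglia markers were listed, none at 0, with a sum of 1235 FPKM in WT cultures and 934 FPKM in KO cultures, and 9 of them were lower in KO. The 4 listed mural cell and fibroblast markers summed to 2911 and 2710 FPKM. Most of it was Acta2, nearly level at a ratio (KO vs. WT) of 0.996, and 3 of the 4 were below 2/3. The oligodendrocyte lineage summed to 52.0 and 68.9 FPKM, the endothelium to 40.1 and 28.1 FPKM, and the neuron markers to 81.9 and 103.7 FPKM, although the neuronal genes Rbfox3, Snap25 and Syt1 were each below 0.3 FPKM. The 4 Y chromosome genes were at 0 in WT and summed to 8.44 FPKM in KO, so the sex of the pooled animals cannot be told apart from genotype. The low values of long genes fell on steps that correspond to about 9380000 mapped fragments in WT and 9520000 in KO.

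Among the 10 genes, Arrb1 alone passed the limits of the study, a ratio of FPKM (KO vs. WT) above 3/2 or below 2/3. It fell, no gene of the group was above 3/2, and 9 lay within the limits. Of all genes analysed, 17.8% were past either limit and 8.28% were below 2/3, counting genes listed in 1 table only as past a limit. Of genes with at least 1 FPKM in both libraries, as all 10 had, 11.8% were past either limit and 5.35% were below 2/3. The group had a median log2 ratio of -0.11, against 0.02 over all genes analysed that both tables list. The level was lower in KO for 6 of the 10 genes and higher for 4, and 46.9% of those listed in both tables were lower in KO. A 95% interval for each ratio was computed from fragment numbers estimated with the longest annotated transcript. It covers counting error only, not the spread between animals or cultures, and it left out 1 for 5 genes and held 1 for 5. With the median or the shortest coding transcript length it left out 1 for 3 genes (Arrb1, Arrb2 and Grk5), and those of Arrdc4 and Adrbk1 then held 1.

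**Figure D1:**
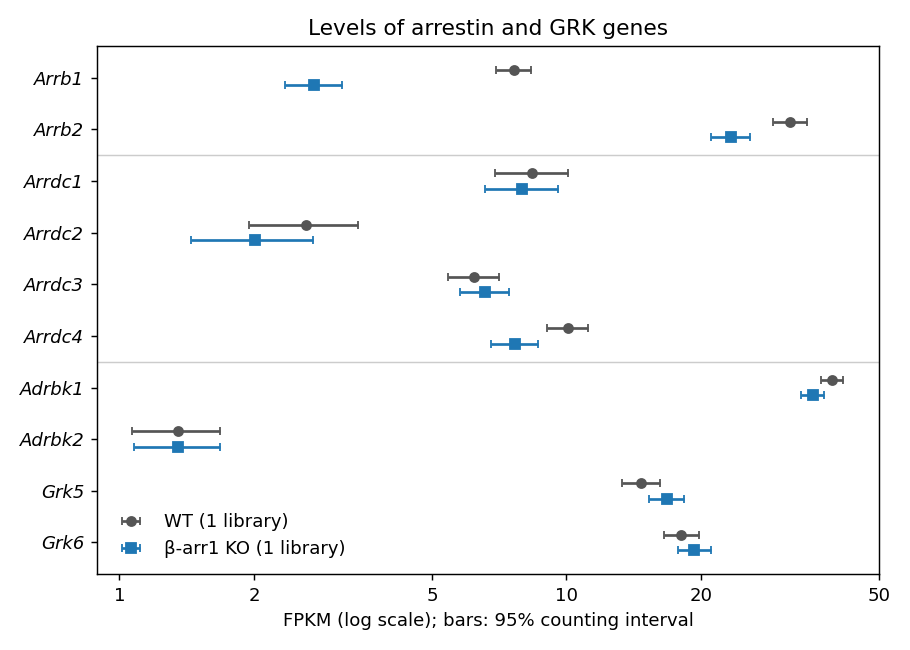
Level of each gene in FPKM (x axis, log scale) in the WT library (grey circles) and the β-arr1 KO library (blue squares), with bars for the 95% counting interval of each library. Fragments were estimated from the longest transcript. The intervals of both libraries are apart for Arrb1 (7.62 and 2.72 FPKM), Arrb2 (31.6 and 23.3 FPKM) and Arrdc4 (10.1 and 7.68 FPKM), and overlap for the other 7 genes.

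Arrb1 encodes β-arrestin 1 and is the gene deleted in the KO mice. Its table row covers chr7:106683996-106755281 (mm9, plus strand, GeneID 109689), where the annotation holds 9 transcripts, the longest with 16 exons. Arrb1 was at 7.62 FPKM in WT cultures and 2.72 FPKM in KO cultures, about 496 and 181 fragments. The ratio was 0.358 (95% counting interval 0.300 to 0.425), a log2 ratio of -1.48. With the median transcript length the estimate was 17 and 8 fragments, and the interval of 0.134 to 0.874 reached above 2/3. The library labelled KO was thus the lower of both for the deleted gene, while the level left in KO was above 31.3% of the genes listed there. In WT the gene stood above 51.8% of listed genes. Counting genes listed in WT only, 371 of the genes analysed had a lower ratio than Arrb1, and 6.05% were at least as far from 1 in either direction. Ratios scatter more at low levels. Of the 2460 genes listed in both tables with a mean of 5 to 10 FPKM, 4.84% were below 2/3 and 12 had a lower ratio than Arrb1. The FPKM value sums over the whole row and does not say which exons the fragments in the KO library came from.

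**Figure D2:**
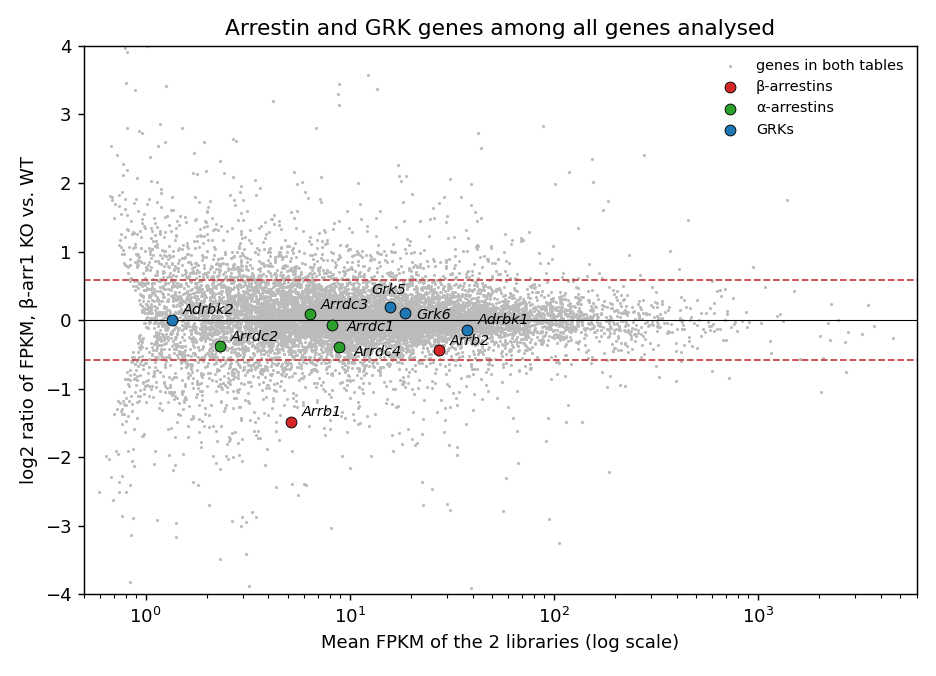
Log2 ratio of FPKM, KO vs. WT (y axis), against the mean FPKM of both libraries (x axis, log scale) for 12171 genes analysed and listed in both tables (grey), with dashed lines at ratios of 3/2 and 2/3 and 21 genes beyond the drawn range. Arrb1 lies at a log2 ratio of -1.48, below the lower line, and the other 9 coloured genes lie between the lines.

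Arrb2 encodes β-arrestin 2, which shares the receptor-binding function of β-arrestin 1 and likewise serves as a scaffold (chr11:70246082-70254330, plus strand, GeneID 216869). It was at 31.6 FPKM in WT cultures and 23.3 FPKM in KO cultures, about 492 and 379 fragments. The KO library was the lower, with a ratio of 0.737 (0.643 to 0.844), which lies within the limits. A ratio at least as far from 1 was found for 24.7% of genes analysed, and 5.38% of the 2304 genes listed in both tables with a mean of 20 to 50 FPKM had a lower ratio. Of the microglia markers, 9 of 10 were lower in KO, with a summed ratio of 0.756, and 46.9% of genes analysed and listed in both tables were lower in KO. The summed ratios of the astrocyte, neuron and oligodendrocyte lineage markers were 1.06, 1.27 and 1.32. Of the mural cell and fibroblast markers, Col1a1 (0.564), Rgs5 (0.615) and Dcn (0.136) were below 2/3. Acta2, which made up most of their sum, was nearly level at a ratio of 0.996. The endothelium markers were mixed, with Cdh5 at a ratio of 0.507 and Pecam1 at 1.72. The part of these cell types in the values of Arrb2, and of Arrb1 and Arrdc4, which were lower in KO too, was not tested. In such bulk samples, fewer cells of a type and less RNA per cell cannot be told apart.

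Both β-arrestin transcripts were thus at a lower level in KO. Their summed level was 39.3 FPKM in WT cultures and 26.0 FPKM in KO cultures, a ratio of 0.663. Arrb2, the more abundant, differed by -8.33 FPKM (KO minus WT) of a summed difference of -13.2 FPKM, and Arrb1 by -4.89 FPKM. In WT, Arrb1 made up 19.4% of the summed β-arrestin level and Arrb2 exceeded it 4.15-fold. In KO, the share of Arrb1 was 10.5% and Arrb2 exceeded it 8.56-fold.

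**Figure D3:**
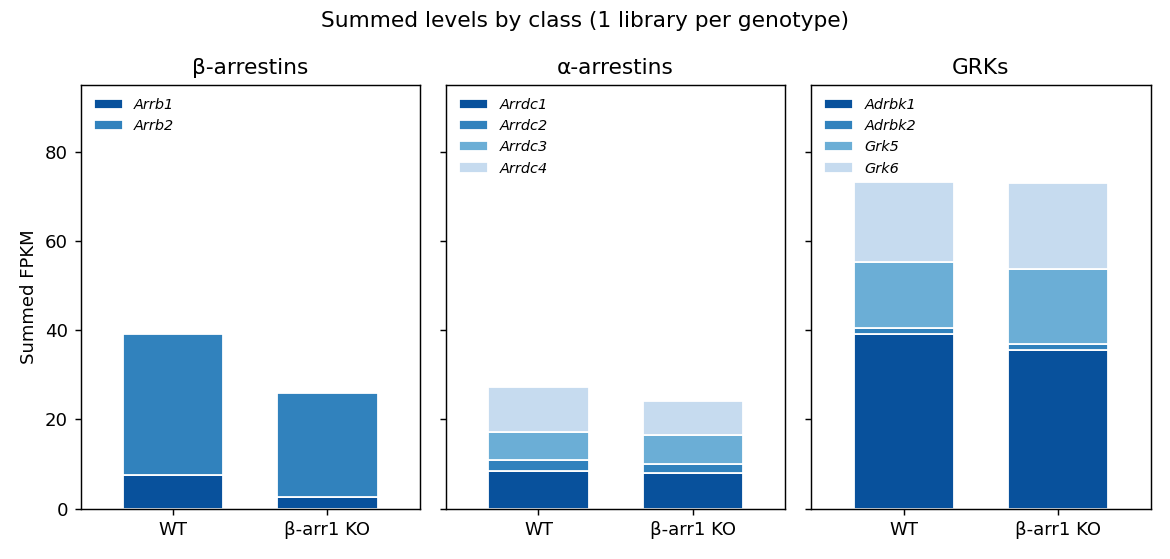
Summed FPKM (y axis, from 0) of the β-arrestins, α-arrestins and GRKs in the WT and the β-arr1 KO library, stacked by gene. The β-arrestin sum is 39.3 FPKM in WT cultures and 26.0 FPKM in KO cultures, whereas the GRK sums, 73.3 and 73.1 FPKM, stand at nearly one height.

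The 4 α-arrestins summed to 27.3 FPKM in WT cultures and 24.2 FPKM in KO cultures, a ratio of 0.889, and none passed either limit. Arrdc4 (chr7:75881880-75894124, minus strand, GeneID 66412), which binds Nedd4-family ligases and whose transcription follows glucose, was at 10.1 FPKM in WT cultures and 7.68 FPKM in KO cultures. Its ratio was 0.762 (0.648 to 0.896), the lowest of the α-arrestins, and 28.0% of genes analysed were at least as far from 1. Arrdc2 (chr8:73359037-73363619, minus strand), the least abundant, was at 2.61 and 2.01 FPKM. Its ratio of 0.769 was close to that of Arrdc4, but with about 52 and 42 fragments its interval of 0.499 to 1.18 was too wide to show a difference at this depth.

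Arrdc1 (chr2:24780872-24790801, minus strand), whose product helps form vesicles that bud from the plasma membrane, was at 8.39 FPKM in WT cultures and 7.96 FPKM in KO cultures, a ratio of 0.949 (0.727 to 1.24). Arrdc3 (chr13:81022683-81035303, plus strand), whose product takes part in the trafficking of membrane receptors, was at 6.20 and 6.59 FPKM, a ratio of 1.06 (0.885 to 1.28). Neither difference exceeded counting error. Txnip, an α-arrestin outside the group of 10 that binds thioredoxin and restrains glucose uptake, was more abundant than the 4 Arrdc genes together. It was at 44.0 FPKM in WT cultures and 34.9 FPKM in KO cultures, a ratio of 0.793 (0.725 to 0.867), also within the limits. With Txnip included, the α-arrestins summed to 71.3 FPKM in WT cultures and 59.1 FPKM in KO cultures, of which Txnip made up 61.7% and 59.0%.

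Arrdc4 and Txnip are both known targets of the glucose sensing factors MondoA (gene Mlxip) and ChREBP (gene Mlxipl), which bind E-box sequences with their partner Mlx. Their promoter windows are shown because both genes were lower in KO by similar ratios. Arrdc2 had a similar ratio too, 0.769, and the part of these factors in any of the ratios was not tested. Each window runs from 250 bases before to 50 bases after the start site, from RefSeq (GRCm38.p6), and was placed on mm9 by an exact match: chr7:75894075-75894374 on the minus strand for Arrdc4 and chr3:96361630-96361929 on the plus strand for Txnip. Capitals mark the E-box CACGTG and its variant CACGAG, searched on both strands.
Arrdc4: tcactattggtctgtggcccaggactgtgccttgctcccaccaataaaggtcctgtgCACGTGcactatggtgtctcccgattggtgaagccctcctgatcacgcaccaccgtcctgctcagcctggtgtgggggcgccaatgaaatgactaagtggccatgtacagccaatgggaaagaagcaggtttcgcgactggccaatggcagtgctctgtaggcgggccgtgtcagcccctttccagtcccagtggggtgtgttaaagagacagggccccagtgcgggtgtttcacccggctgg
Txnip: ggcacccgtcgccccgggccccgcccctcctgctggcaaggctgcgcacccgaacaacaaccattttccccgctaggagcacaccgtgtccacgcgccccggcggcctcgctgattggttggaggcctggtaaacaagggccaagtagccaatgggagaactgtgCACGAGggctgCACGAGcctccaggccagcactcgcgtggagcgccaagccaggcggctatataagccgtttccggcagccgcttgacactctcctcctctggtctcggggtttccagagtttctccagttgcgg

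The Arrdc4 window held 1 CACGTG, whose first base lay 193 bases upstream of the start site. The Txnip window held CACGAG at 85 and at 74 bases upstream, with 5 bases between both copies. Of 32851 promoter windows of this length, 7.15% held CACGTG and 6.47% held CACGAG. Windows were at hand for 6 of the 10 genes and not for Arrb1, Arrb2, Adrbk1 and Adrbk2. Of the 6, Arrdc4 alone held CACGTG, Arrdc1 and Arrdc2 held CACGAG, and none held the cAMP response element TGACGTCA, which 1.79% of all windows hold. These matches are a description of the letters and not of binding. The transcripts of the sensors themselves lay within the limits, with ratios of 1.04 for Mlx, 0.970 for Mlxip and 0.794 for Mlxipl.

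Other genes of the arrestin fold were within the limits where they reached 1 FPKM. Vps26a, Vps26b and Dscr3 encode subunits of endosomal sorting complexes (retromer and its relative retriever), with ratios of 0.949, 1.26 and 1.02. The Vps26b row overlaps that of Thyn1, so fragments of both genes could have been divided between them. The visual arrestin gene Sag was at 0.203 FPKM in WT cultures and 0.263 FPKM in KO cultures, below the minimum.

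The GRK transcripts as a class stood at almost the same level in both libraries. The 4 genes summed to 73.3 FPKM in WT cultures and 73.1 FPKM in KO cultures, a ratio of 0.997. Since the β-arrestin sum, which includes the deleted gene, was lower in KO, the GRK sum exceeded it 1.87-fold in WT and 2.81-fold in KO. Within the class, Adrbk1 and Adrbk2, whose products are recruited to the membrane by free Gβγ subunits, summed to 40.5 and 37.0 FPKM, a ratio of 0.911. Grk5 and Grk6, whose products are held at the membrane without Gβγ, summed to 32.8 and 36.1 FPKM, a ratio of 1.10.

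Adrbk1 (chr19:4286001-4306120 in the WT table, minus strand, GeneID 110355) encodes GRK2, the most widely expressed of these kinases. It was the most abundant of all 10 genes in both libraries, at 39.2 FPKM in WT cultures and 35.6 FPKM in KO cultures, about 1208 and 1130 fragments. Its ratio was 0.908 (0.837 to 0.986), and 61.4% of genes analysed were at least as far from 1. Adrbk2 (chr5:113339498-113444534, minus strand), which encodes GRK3, was the least abundant in both, at 1.35 FPKM in each library, with a ratio of 1.00 (0.728 to 1.38).

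Grk5 (chr19:60965652-61168458 in the WT table, plus strand) was at 14.7 FPKM in WT cultures and 16.8 FPKM in KO cultures. Its ratio of 1.14 was the highest of the 10 genes, and the lower bound of its interval, 1.0006, only just left out 1 (upper bound 1.31). Grk6 (chr13:55546695-55562288, plus strand) was at 18.1 and 19.3 FPKM, a ratio of 1.07 (0.943 to 1.21). In the summed level of the 4 kinases, Adrbk1 held 53.5% in WT and 48.7% in KO, Grk6 24.7% and 26.5%, and Adrbk2 1.84% and 1.85%, with Grk5 holding the rest. The table bounds of Adrbk1 and Grk5 differed slightly between libraries, while those of the other 8 genes were identical, and no row overlapped that of one of the 10. Of the GRKs outside the group, Grk4 was at 3.06 and 2.41 FPKM, a ratio of 0.787 (0.567 to 1.09), and the retinal Grk1 was listed in KO only, at 0.0141 FPKM.

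**Figure D4:**
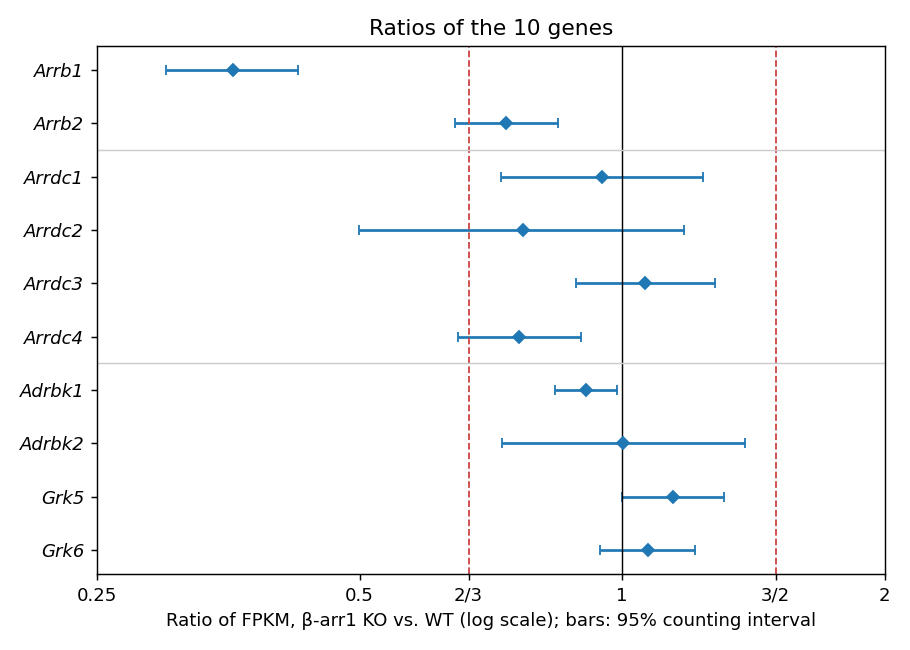
Ratio of FPKM, KO vs. WT (x axis, log scale), for each gene, with bars for the 95% counting interval and dashed lines at 2/3 and 3/2. With fragments estimated from the longest transcript, the interval of Arrb1 (0.300 to 0.425) lies left of 2/3, whereas the point values of the other 9 genes run from 0.737 for Arrb2 to 1.14 for Grk5.

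Since FPKM is a level per transcript length, the 10 genes can be set in order within a library. In WT the order from the highest was Adrbk1, Arrb2, Grk6, Grk5, Arrdc4, Arrdc1, Arrb1, Arrdc3, Arrdc2 and Adrbk2. Neighbours from Arrdc4 to Arrdc3 had overlapping counting intervals, and the other neighbours did not. The intervals in this order, for both libraries, used fragments estimated from the longest transcript. Shorter lengths give fewer fragments and wider intervals, and the overlaps at those lengths were not examined. In KO the first 4 and the last 2 places were held by the genes that held them in WT, and the middle read Arrdc1, Arrdc4, Arrdc3 and Arrb1. Arrb1 moved from the seventh place to the eighth, where its interval overlapped that of Arrdc2. In KO the intervals of Arrb2 and Grk6, Grk6 and Grk5, Arrdc1 and Arrdc4, Arrdc4 and Arrdc3, and Arrdc2 and Adrbk2 overlapped too.

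Proteins that work with arrestins and GRKs were read from lists chosen by function. Of 14 genes for ubiquitin ligases, deubiquitinases and endosomal sorting (ESCRT) partners, 13 were within the limits, with a median log2 ratio of -0.00. Mdm2, a ligase that modifies β-arrestin 2, was at 97.1 FPKM in WT cultures and 79.2 FPKM in KO cultures, a ratio of 0.816. Nedd4, the ligase that α-arrestins recruit, was at 261.8 and 238.3 FPKM, a ratio of 0.910. The gene past the limit was Itch, listed only in KO at 14.9 FPKM. In WT the Itch locus lay under the row of Dynlrb1, the more abundant gene (210.6 FPKM in WT cultures, 184.7 FPKM in KO cultures). The summed FPKM of both genes had a ratio of 0.948, within the limits. Dynlrb1 makes up most of that sum, which therefore cannot show whether the level of Itch itself differed. That was not tested.

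Of the 10 binding partners of GRKs, 9 were within the limits. Git2, the gene of a GRK-interacting protein that acts on Arf small GTPases, fell from 19.8 FPKM in WT cultures to 10.2 in KO cultures. Its ratio was 0.516 (0.461 to 0.577). The Git2 row in WT overlapped that of Ankrd13a, the more abundant gene, whose level was lower in KO too (ratio 0.897). The summed level of both had a ratio of 0.771, within the limits, but Ankrd13a weighs more in that sum. The sum therefore cannot show whether fragments were divided differently between the rows, which was not tested. Git1, the paralogue of Git2, had a ratio of 1.14, and Pebp1, which encodes an inhibitor of GRK2, a ratio of 1.06.

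All 12 genes for enzymes scaffolded by β-arrestins were within the limits, from 0.773 for Mapk10 (JNK3) to 1.12 for Map3k5 (ASK1). Akt1, the gene of a kinase of cell survival, had a ratio of 0.898. The 8 nuclear partners and targets of β-arrestin 1 were within the limits as well. The acetyltransferase gene Ep300 had a ratio of 1.04, Creb1 1.01, Pparg 0.820, and the target genes Fos and Cdkn1b 0.852 and 1.01.

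The adrenergic receptors, after which GRK2 and GRK3 were first named, had 5 of 9 genes above the minimum. Adrb1 had a ratio of 1.31, within the limits, from about 62 fragments in WT and 85 in KO. Adra1d rose from 9.23 FPKM in WT cultures to 15.6 FPKM in KO cultures, a ratio of 1.69 (1.37 to 2.08), but the bounds of its row differed between the tables. Among astrocyte markers, 8 of 10 were higher in KO and 4 were above 3/2, with a summed ratio of 1.06. Of all genes with at least 1 FPKM in both libraries, 6.45% were above 3/2. The part of the astrocyte markers in the Adra1d value was not tested.

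The neighbourhood of the deleted gene was examined as well. Within 1000 kb on either side, 27 genes were listed and 23 reached the minimum. Of these, 4 were above 3/2, 2 below 2/3 and 17 within, with a median log2 ratio of 0.14. All 23 were listed in both tables. Over all genes analysed, 17.8% were past either limit, counting genes listed in 1 table only as past a limit. Of genes with at least 1 FPKM in both libraries, 11.8% were past either limit. The median log2 ratio of genes analysed that both tables list was 0.02. Whether the neighbourhood differs from other regions was not tested. The nearest gene before Arrb1 was Rps3, which encodes a ribosomal protein, at 307.4 FPKM in WT cultures and 513.2 FPKM in KO cultures, a ratio of 1.67. Its many processed copies in the genome and the overlap of its row with those of Klhl35 and Gdpd5 make this value uncertain. The nearest after it, Gm4980, was at 1.28 and 1.99 FPKM, from about 6 and 10 fragments, and its interval of 0.513 to 5.21 held 1. The other genes past a limit were named after their values were seen: Slco2b1 (2.35) and P4ha3 (1.79) above 3/2, and Serpinh1 (0.631) and Pgm2l1 (0.643) below 2/3.

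**Figure D5:**
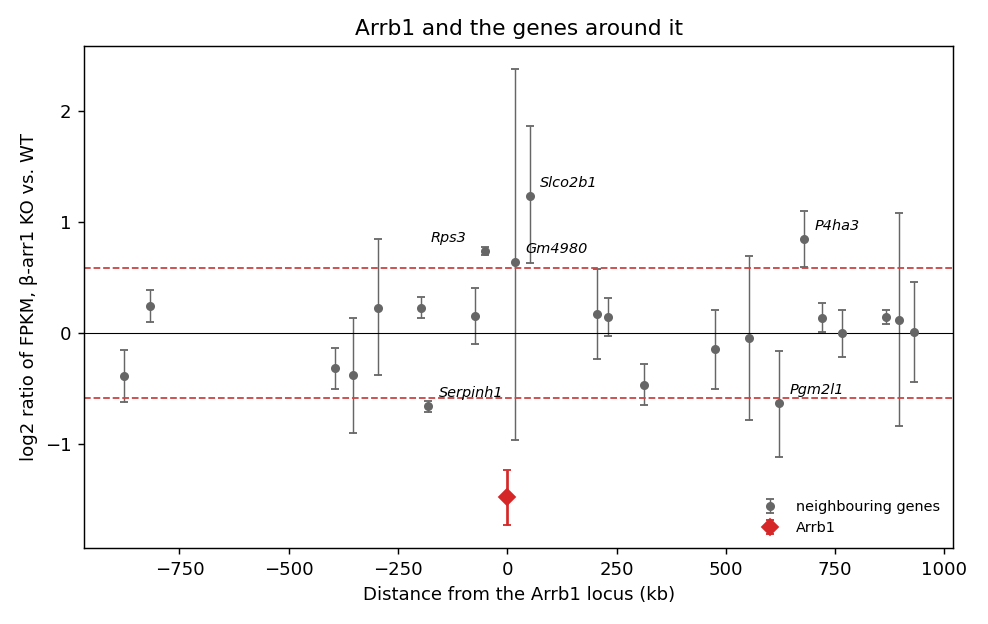
Log2 ratio of FPKM, KO vs. WT (y axis), of the genes analysed within 1000 kb of Arrb1, by distance from the gene in kb (x axis), with bars for the 95% counting interval and dashed lines at ratios of 3/2 and 2/3. Arrb1 is the lowest point, at -1.48, and 17 of its 23 neighbours lie between the lines.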

How the data were processed

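The deposited values were FPKM per gene, 1 table per library, estimated by the authors with Cufflinks from mm9 alignments with TopHat 1.4.0 (version per the submitters' processing notes). The version of Cufflinks was not given in the sources used here. Rows were joined on the gene symbol (15417 genes in WT, 15457 in KO). Where rows shared a symbol (55 and 69 rows, none of the genes described), the row with the highest FPKM was used. Genes that reached 1 FPKM in either library were analysed as deposited, without a pseudocount, and called past the limits above 3/2, below 2/3 or when listed in 1 table only.

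Mapped fragments were estimated from the steps in low FPKM values: 70.7% of 416 genes in WT and 70.8% of 435 in KO lay within 5% of the value of 1, 2 or 3 fragments. Fragments per gene then followed from the longest annotated transcript, and exact Clopper-Pearson intervals (95%) from the fragments. They cover counting error only, and PCR duplicates cannot be told from separate molecules. The calculation was checked on simulated data. Analyses used Python 3.11.15 with scipy 1.17.1, numpy 2.4.6 and pandas 2.3.3, and plots used matplotlib 3.10.9.

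All 10 genes of the group, genes of the lists, genes overlapping them and the nearest neighbours of Arrb1 were named, and the group and the lists were chosen with earlier results of these data known. Gene models were those of the mm9 (NCBIM37) annotation.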

Additional observations from a re-analysis of the deposited data

How the results depend on the processing

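No paired analysis was possible because each genotype had 1 library, and for the same reason no replicate could be left out. The count of the 10 genes past the limits was 1 under all 12 alternatives run: a minimum of 0.1, of 5, of 1 in both libraries or none, a pseudocount of 0.1 or 1, 3 rescalings, limits of 2 and 1/2, and summing of rows with one symbol or of overlapping loci. The gene was Arrb1, the deleted gene, each time, and the minimum of 5 FPKM left 8 of the 10 genes to count. For Arrb1 the ratio ran from 0.353 to 0.432, the highest with a pseudocount of 1 FPKM, that of Arrb2 from 0.727 to 0.745 and that of Arrdc4 from 0.752 to 0.784. The sums of the β-arrestins (0.654 to 0.665) and of the GRKs (0.984 to 1.00) were chosen after seeing the data, as were their rescalings. Genes of the lists past the limits, cell type markers and Y chromosome genes left out, numbered 3 of 57 as reported. They numbered 5 of 61 with a minimum of 0.1 FPKM, 7 of 63 with none and 1 of 57 with limits of 2 and 1/2. With overlapping loci summed they numbered 1 of 57, but Dynlrb1 and Ankrd13a make up most of the sums with Itch and Git2. Over all genes, 2256 past the limits (17.8%) became 3969 (26%) with a minimum of 0.1 FPKM and 4830 (29.6%) with none. The number was 1179 (12.5%) with 5 FPKM, 1372 (11.8%) with 1 FPKM in both libraries and 1163 (9.2%) with limits of 2 and 1/2. Depth limits the weak genes most. With fragments estimated from the shortest coding transcript, 3 of the 10 intervals left out 1 in place of 5: that of Arrb1 widened to 0.125 to 0.907, and those of Arrdc4 and Adrbk1 then held 1. After rescaling by the median ratio, the interval of Grk5 was 0.987 to 1.29.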
